A study of Mus musculus with 4 samples.

Results

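The AP-1 and immediate early genes examined here are 10 genes given by symbol, Jun, Junb, Jund, Fos, Fosb, Fosl2, Atf3, Egr1, Egr2 and Ier2, out of 27179 genes with an FPKM value in leukemia-initiating cells (LICs) of a murine AML model. All 10 were found by their NCBI gene numbers, and all 10 passed the filter on low values. By the labels, LICs were Mac-1+/c-Kit+ cells that were sorted from bone marrow, and their RNA was sequenced in 4 libraries, 2 labelled WT (wild type) and 2 labelled CD274-null (CD274-/-). All 4 came from C57BL/6 mice with an age of 6 weeks in the labels. In both groups the leukemia was made with MLL-AF9, a fusion oncogene that a retrovirus with a YFP marker brought into Lin- fetal liver cells before they were given to lethally irradiated C57BL/6 recipients, so that the groups differ by label in CD274 alone. The sources used here do not say from which transplantation the RNA came or whether mice were pooled, and p-values measure only the spread between these libraries, which may be technical. CD274, also called PD-L1, is a surface ligand of the immune checkpoint receptor PD-1. The study connects it with JNK signaling in LICs, and these genes encode transcription factors that lie downstream of JNK and ERK.

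AP-1 is a dimer of basic leucine zipper proteins, most often a Jun protein with a Fos or ATF protein. Jun proteins can pair with each other, while Fos proteins need a Jun partner. JNK phosphorylates c-Jun, and ERK acts through ternary complex factors and SRF on the promoters of Fos and Egr1. Transcription of these genes starts within minutes of a stimulus and needs no new protein, and their RNAs are short-lived, so that their levels follow recent signaling as well as the handling of cells. In myeloid cells, AP-1 and EGR factors are known for roles in monocyte and macrophage differentiation.

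FPKM is a read number scaled for gene length and for the reads of the library. The reads that FPKM was scaled by numbered 11568565 and 10181846 for WT, against 8843737 and 9957760 for CD274-null. The deleted gene was checked first. Cd274 had an FPKM of 2.80 and 0.945 for WT replicates 1 and 2, against 1.43 and 2.29 for CD274-null replicates 1 and 2, so its level did not set the labels apart. Which part of the gene is deleted is not given in the sources used here, and every direction given here rests on the labels. Of the genes that mark the sorted cells, Itgam (Mac-1) ranged from 100.2 to 174 FPKM and Kit from 6.59 to 19.5 over the 4 libraries, and Hoxa9 and Meis1, targets of MLL fusions, from 71.3 to 75.8 and from 35.6 to 44.6. Between the groups, log2(FPKM + 0.5) was compared with limma across 13230 genes whose mean FPKM reached 0.5. A gene is called where the unadjusted p was under 0.01 and the fold change above 1.5, the thresholds of the study. This held for 3.63% of the tested genes, 2.39% higher and 1.24% lower in CD274-null. With 2 libraries a group, values that do not overlap were common, since both CD274-null values were above both WT values for 25.6% of tested genes and below them for 21.8%.

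Of 10 genes, 8 had a start-site window in the RefSeq promoter set of GRCm38.p6, and Egr1 and Ier2 had none. In the 250 bases before the start, 7 motifs were searched on both strands. Stretches from 4 of these genes are shown because each holds a match to a searched motif, from Jun and Fos, which give AP-1 its best known dimer, from the gene that was called and from an EGR factor. Each runs 5′ to 3′ on the strand of the gene and ends at the base before the start, with the match in capitals.
Jun (chr4:95052223-95052372, minus strand), the CRE variant TGACATCA, 45 bases before the start: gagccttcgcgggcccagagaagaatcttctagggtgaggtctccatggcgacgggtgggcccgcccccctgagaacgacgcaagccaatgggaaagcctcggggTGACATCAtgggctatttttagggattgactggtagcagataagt
Fos (chr12:85473740-85473889, plus strand), the TATA box TATAAA, 33 bases before the start: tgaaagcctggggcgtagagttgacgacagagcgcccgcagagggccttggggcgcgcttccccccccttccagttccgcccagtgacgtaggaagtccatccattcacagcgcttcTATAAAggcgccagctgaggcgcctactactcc
Fosl2 (chr5:32136322-32136471, plus strand), the EGR motif GCGGGGGCG, 79 bases before the start: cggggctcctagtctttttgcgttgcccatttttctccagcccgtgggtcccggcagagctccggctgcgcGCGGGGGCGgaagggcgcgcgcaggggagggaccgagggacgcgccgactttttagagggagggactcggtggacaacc
Egr2 (chr10:67537416-67537565, plus strand), a CArG box, the element bound by SRF, 72 bases before the start: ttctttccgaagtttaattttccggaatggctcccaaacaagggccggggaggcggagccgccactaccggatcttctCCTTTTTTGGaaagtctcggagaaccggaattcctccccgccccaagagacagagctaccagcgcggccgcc

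Over the 32851 windows of all genes, TGACATCA was present in 2.93%, TATAAA in 12.4%, GCGGGGGCG in 2.57% and the CArG box in 1.47%. Fosb also held GCGGGGGCG, and 4 of the 5 overlapping or neighbouring windows of Egr2 held a CArG box. The palindromic CRE TGACGTCA (1.55% of all windows), the AP-1 motif TGACTCA (4.46%) and the EGR motif GCGTGGGCG (0.536%) were in none of the windows of these genes. No matched stretch counted for more than 1 motif. These matches describe letters in a window and not binding.

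Of the Jun proteins, Jun itself was among the most abundant RNAs of 3 libraries and was far lower in the remaining library. Jun (chromosome 4, 95049036 to 95052222 in GRCm38, as for all positions here, a single exon) encodes c-Jun, the substrate of JNK. Its FPKM was 491 and 444 for WT replicates 1 and 2, against 127 and 650.4 for CD274-null replicates 1 and 2, from 18099, 14395, 3582 and 20640 reads. The lowest and the highest value thus both came from CD274-null libraries, and the groups overlapped. By level, Jun ranked 106 and 116 among all genes in the WT libraries, 590 in CD274-null replicate 1 and 76 in replicate 2. Jun had a fitted log2 fold change of -0.70 (SE 0.70, Benjamini-Hochberg adjusted p = 0.684 by limma), with a 95% interval from -2.40 to 1.01.

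Junb, a Jun protein with weaker transactivation that restrains myeloid proliferation, lies on chromosome 8 (84976909 to 84978748). It had an FPKM of 427 and 232 for WT, against 147 and 343 for CD274-null. Both CD274-null values were under the higher WT value and the groups overlapped. Junb had a fitted log2 fold change of -0.48 (SE 0.47, adjusted p = 0.675 by limma).

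Jund, the Jun protein that is usually expressed in resting cells as well, lies on chromosome 8 (70697739 to 70700616) and has a single exon. Its FPKM was 73.2 and 87.6 for WT, against 25.2 and 78.6 for CD274-null. Again CD274-null replicate 1 was the lowest of the 4, while replicate 2 lay between the WT values. For Jund a log2 fold change of -0.84 was fitted (SE 0.50, adjusted p = 0.502 by limma). In the GENCODE annotation of GRCm38, exons of Jun and Jund overlap antisense genes and those of Junb overlap Prdx2 on the other strand, and the library kit does not mark strand, so reads of these pairs cannot be told apart. Prdx2 had 51.9, 59.6, 67.3 and 55.2 FPKM in the same order of libraries, with its lowest value in WT replicate 1.

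**Figure D1:**
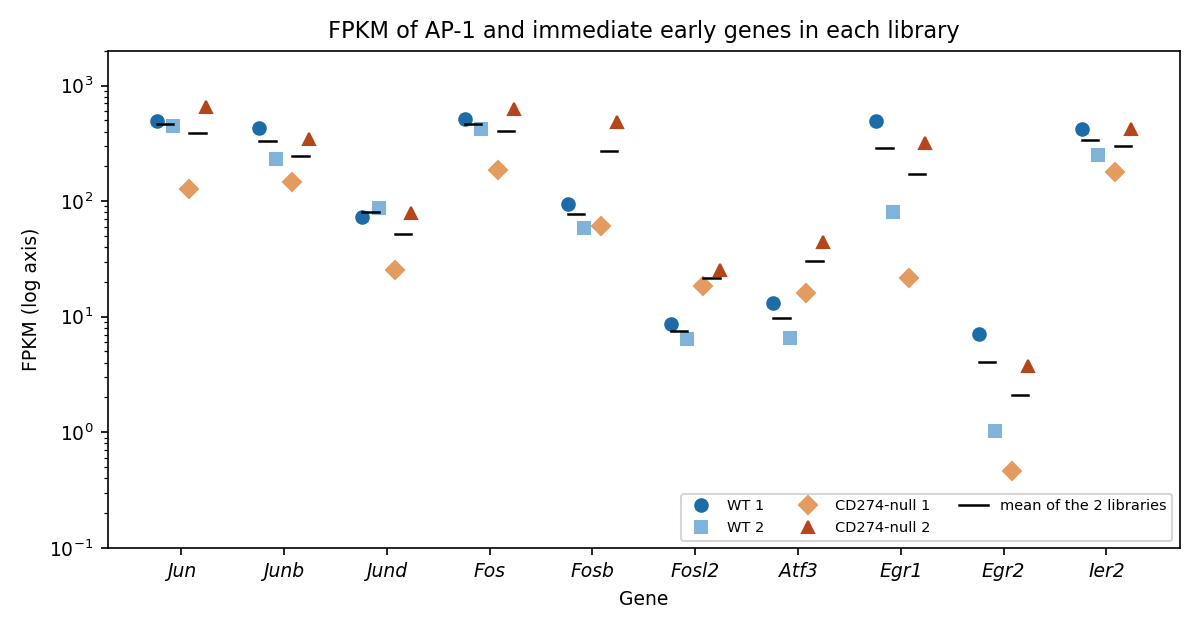
FPKM (log axis) of the 10 genes in each of the 4 libraries, with a marker per library and a bar at the mean of the 2 libraries of a group. CD274-null replicate 2 lies above replicate 1 for all 10 genes, and only for Fosl2 and Atf3 do both CD274-null values lie above both WT values.

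Summed over the Jun family, FPKM was 991 and 763 for WT, against 299.9 and 1071.6 for CD274-null. Jun held 49.6% and 58.2% of this sum for WT, against 42.4% and 60.7% for CD274-null, and Junb held 43.1% and 30.4%, and 49.2% and 32.0%. Jund made up 7.34% to 11.5%. In CD274-null replicate 1, Junb was thus the leading Jun family RNA, by FPKM, which is scaled for gene length.

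Among Fos proteins, Fosl2 was called higher in the libraries labelled CD274-null, while Fos and Fosb were not called. Fosl2 (chromosome 5, 32136472 to 32157840) encodes FRA-2, a Fos protein that lacks the strong transactivation domain of c-Fos. It had an FPKM of 8.71 and 6.41 for WT, against 18.3 and 25.2 for CD274-null, from 591, 383, 951 and 1472 reads. Both CD274-null libraries were above both WT libraries, and the mean of 21.8 ± 4.86 (SD, n = 2) was 2.88 times the WT mean of 7.56 ± 1.62 (SD, n = 2). Fosl2 thus differed by 1.46 in log2 (SE 0.29, 95% interval 0.77 to 2.16, unadjusted p = 0.00202 and adjusted p = 0.251 by limma). Fosl2 was the only gene of the 10 to be called. That call was lost when the variance was not moderated. It was lost as well without CD274-null replicate 1, at a log2 fold change of 1.69, and without CD274-null replicate 2, at 1.24.

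Fos (chromosome 12, 85473890 to 85477274), which encodes c-Fos, had an FPKM of 509 and 424 for WT, against 185 and 625 for CD274-null. Like Jun, it was lowest in CD274-null replicate 1 and highest in replicate 2. Fos thus had a log2 fold change of -0.45 (SE 0.55, adjusted p = 0.747 by limma).

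Fosb (chromosome 7, 19302696 to 19310118), a close relative of c-Fos, had an FPKM of 94.5 and 58.7 for WT, against 60.3 and 479 for CD274-null, from 4128, 2258, 2015 and 18010 reads. CD274-null replicate 1 lay within the WT values and replicate 2 stood far above all 3 others. The CD274-null mean of 269.7 ± 296 (SD, n = 2) thus rests on a single library. Fosb had a fitted log2 fold change of 1.19 (SE 0.89, adjusted p = 0.576 by limma), and it was -0.30 without CD274-null replicate 2.

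Within the Fos family (Fos, Fosb, Fosl1 and Fosl2), Fos held 82.8% and 86.5% of the summed FPKM for WT, against 70.0% and 55.3% for CD274-null. The share of Fosb was 15.4% and 12% for WT, against 22.8% and 42.3% for CD274-null. That of Fosl2 was 1.42% and 1.31%, and 6.92% and 2.23%. In these shares the groups did not overlap for Fos, Fosb or Fosl2, but in FPKM they overlapped for Fos and Fosb. Shares of 1 family move against each other, so these are not 3 separate results. In CD274-null replicate 1, Fosb FPKM lay within the WT values while Fos FPKM was the lowest of the 4 libraries. By FPKM, groups did not overlap for 25.6% (higher in CD274-null) and 21.8% (lower) of tested genes. The summed FPKM ran from 265 in CD274-null replicate 1 to 1131.4 in replicate 2, with 614 and 490.0 in WT. The shares were examined after the values were seen and were not tested.

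**Figure D2:**
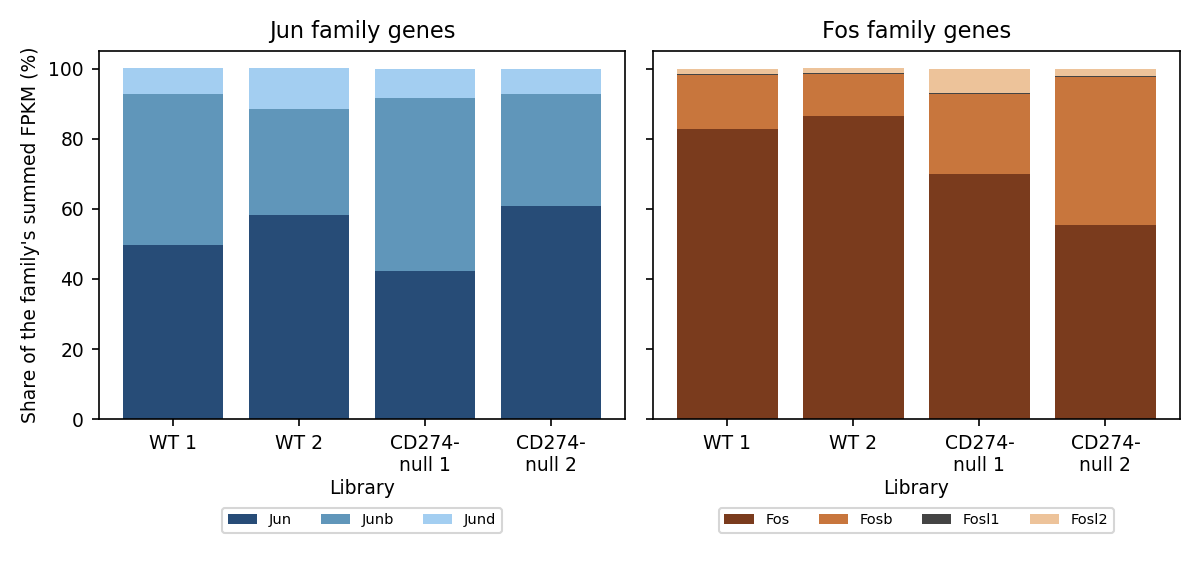
Share (%) of each gene in the summed FPKM of the Jun family (Jun, Junb, Jund) and of the Fos family (Fos, Fosb, Fosl1, Fosl2), by library. Fos makes up 82.8% and 86.5% of its family for WT, against 70.0% and 55.3% for CD274-null.

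Atf3 (chromosome 1, 191170296 to 191183333) encodes a stress-induced ATF protein that pairs with Jun proteins and represses inflammatory genes. Its FPKM was 13.1 and 6.56 for WT, against 16.2 and 44.4 for CD274-null, from 299, 132, 283 and 874 reads. Both CD274-null values were higher than both WT values, but CD274-null replicate 1 exceeded WT replicate 1 by a small margin next to the gap between the WT libraries. Atf3 had a fitted log2 fold change of 1.48 (SE 0.53, unadjusted p = 0.0305, adjusted p = 0.333 by limma), and Atf3 was not called.

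Egr1 and Egr2, zinc finger factors that bind GC-rich elements, had the widest ratios between libraries of a genotype among the 10 genes. Egr1 (chromosome 18, 34861207 to 34864956) had an FPKM of 489 and 81.3 for WT, against 21.8 and 318 for CD274-null, from 17388, 2543, 593 and 9731 reads. The values of each group were thus 6.02 and 14.6 times apart, and the groups overlapped. Egr2 (chromosome 10, 67534469 to 67542188), a paralog of Egr1, had 7.05 and 1.03 for WT, against 0.458 and 3.73 for CD274-null. In the order of the libraries it matched Egr1, from 242, 31, 12 and 110 reads. For Egr1 the log2 fold change was -1.25 (SE 1.32, adjusted p = 0.700 by limma), with an interval as wide as -4.46 to 1.96. For Egr2 it was -0.76 (SE 0.95, adjusted p = 0.754 by limma), and Egr1 RNA made up 97.9% to 98.8% of the FPKM of the pair in every library.

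Ier2 (chromosome 8, 84661331 to 84662852, a single exon) encodes a nuclear protein of the early response. Its FPKM was 424 and 249.7 for WT, against 178 and 424 for CD274-null. The highest values of the groups were alike and CD274-null replicate 1 was the lowest. For Ier2 a log2 fold change of -0.25 was fitted (SE 0.47, adjusted p = 0.849 by limma).

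Over the 10 genes, 1 was called, Fosl2, a share of 10% that rests on that 1 gene, beside 3.63% of all tested genes. None was called lower. Groups did not overlap for 2 of 10, Fosl2 and Atf3, both higher in CD274-null, beside the 25.6% of tested genes given above. With limma, 0 of 10 had an adjusted p under 0.05 (0.0756% of all genes did) and 2 had an unadjusted p under 0.05. With voom on recovered reads these counts were 0 and 2 as well. The fitted log2 fold change was above 0 for 3 genes and below 0 for 7, with a median of -0.46, against 0.01 over all tested genes. The standard errors, 0.29 to 1.32, were above the median of 0.30 over all tested genes for every gene but Fosl2. An exact permutation test of 2 against 2 libraries cannot give a two-sided p under 0.333, so no such test was run.

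**Figure D3:**
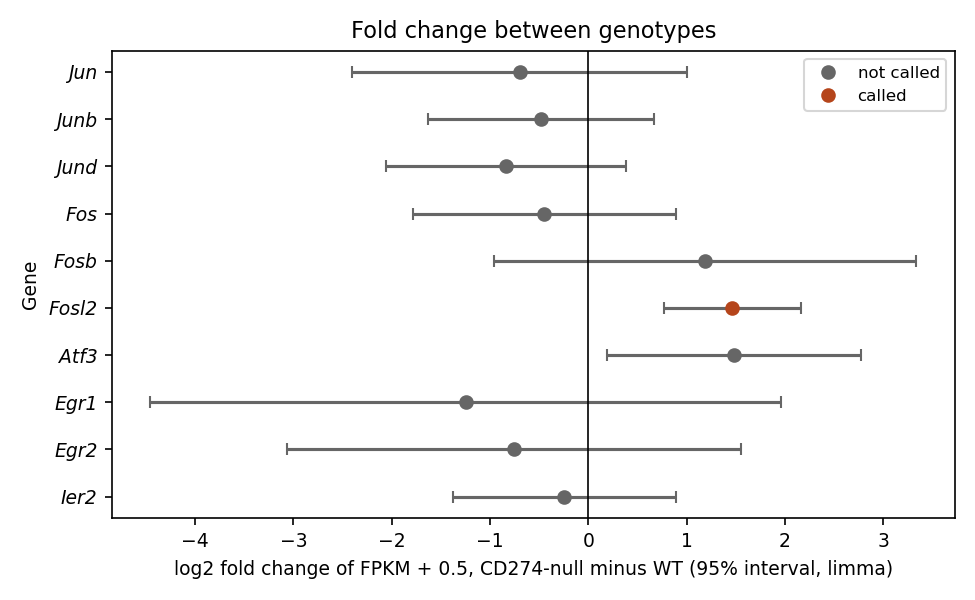
Log2 fold change of FPKM + 0.5 between the libraries labelled CD274-null and WT, with 95% intervals by limma (2 libraries per group). The intervals of 8 genes include 0, and those of Fosl2 (0.77 to 2.16) and Atf3 (0.19 to 2.78) do not.

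Most of these genes differed widely between libraries of the same genotype. All 10 genes were higher in CD274-null replicate 2 than in replicate 1, compared with 34.4% of all tested genes. For 9 of 10 the difference exceeded 1 on the log2 scale, compared with 3.37%, and the remaining gene was Fosl2 (0.45). The ratio of the 2 libraries was 14.6 for Egr1, 8.14 for Egr2, 7.94 for Fosb, 5.12 for Jun, 3.37 for Fos, 3.12 for Jund, 2.74 for Atf3, 2.39 for Ier2 and 2.32 for Junb. Between the WT libraries, 9 of 10 were higher in replicate 1, all but Jund, compared with 44.5% of all tested genes, and 2 of 10, Egr1 and Egr2, differed by more than 1 on the log2 scale (11.4%). CD274-null replicate 1 had the lowest value of the 4 libraries for 7 of 10 genes (8.57% of all tested genes), all but Fosb, Fosl2 and Atf3. The members were chosen by name and share upstream kinases, so they are not independent of each other, and these shares carry no p.

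**Figure D4:**
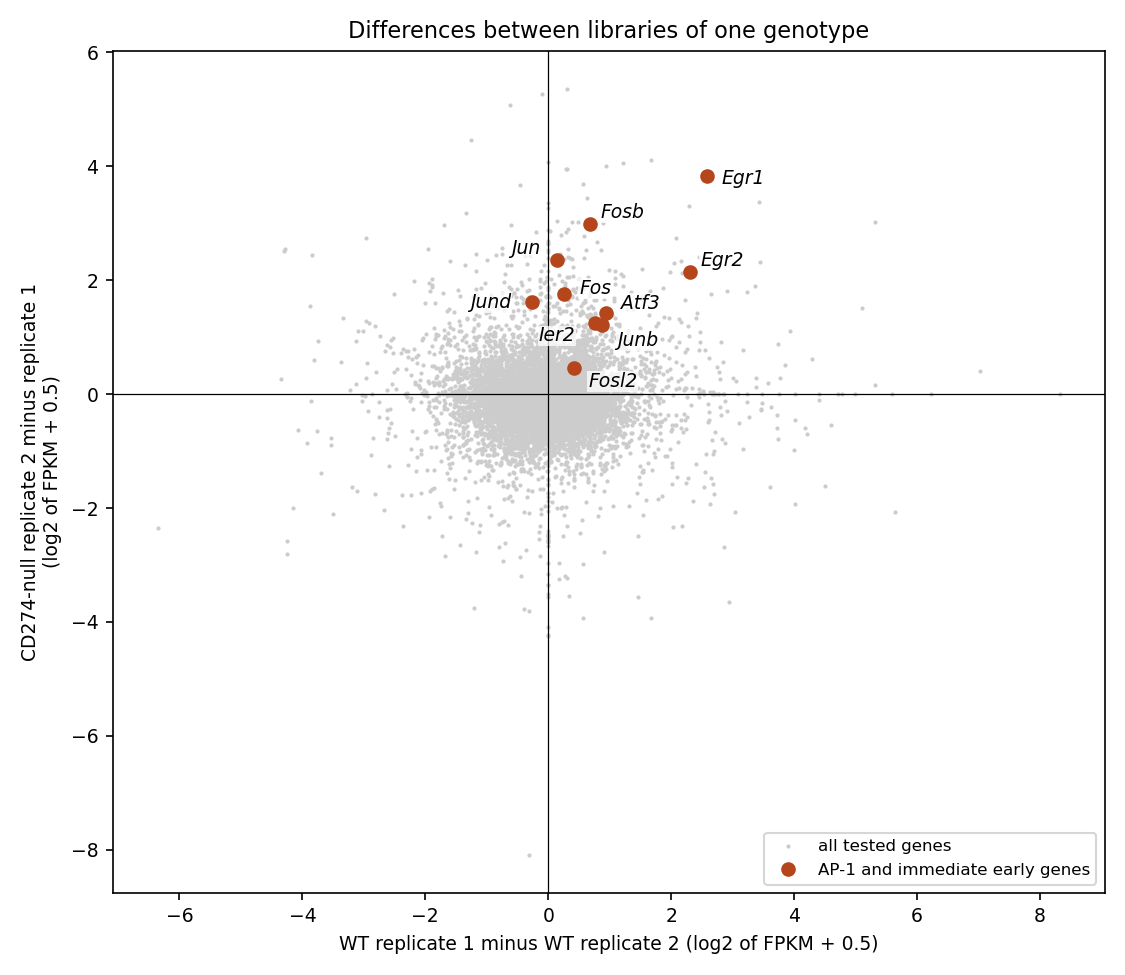
Difference between the 2 libraries of each genotype for every tested gene (grey) and for the 10 genes (red), on the log2(FPKM + 0.5) scale. All 10 genes lie above 0 on the CD274-null axis, up to 3.84 for Egr1, and 9 lie above 0 on the WT axis.

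In reads, the 10 genes took up 0.623% and 0.388% of the reads that FPKM was scaled by for WT, against 0.184% and 0.792% for CD274-null. With CD274-null replicate 1 left out, the log2 fold change of Jun, Junb, Fos, Egr1, Egr2 and Ier2 was above 0 (0.48 for Jun, 0.43 for Fos, 0.67 for Egr1), and 1 gene was called, Fosb, higher. With CD274-null replicate 2 left out, 2 genes were called, Jun (-1.87) and Jund (-1.65), both lower. In these fits the lone CD274-null library is assumed to vary like the other group. Directions for 7 of the 10 genes, all but Jund, Fosl2 and Atf3, thus depended on which library was used. Summed FPKM of 10 heat shock genes was 1446.8 and 1490.3 for WT, against 1174.4 and 2064.9 for CD274-null. This sum followed the order of the 10 members between the CD274-null libraries, but not between the WT libraries. Singly, 6 of the 10 heat shock genes were higher in WT replicate 1 than in WT replicate 2. All 10 heat shock genes were higher in CD274-null replicate 2 than in replicate 1, among them Hsp90ab1, a cytosolic HSP90 (982.6 and 1166.1, 807.5 and 927.9), Dnajb1, an HSP70 co-chaperone (75.1 and 53.1, 61.7 and 253), and Hspa8, a constitutive HSP70 (218 and 132, 167 and 318). Hspa1a, an inducible HSP70 picked after its values were seen, was 12.4 and 13.3 for WT, against 2.91 and 130.2 for CD274-null, and could share reads with its near copy Hspa1b. The part of cell handling or stress in the result was not tested.

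Other immediate early genes showed the same order of the CD274-null libraries. Of a list of 31 such genes, 27 were tested, and 25 of the 27 were higher in CD274-null replicate 2 than in replicate 1, 18 of them by more than 1 on the log2 scale. In 22 of 27 the highest value of the 4 libraries was that of CD274-null replicate 2 (21.0% of all tested genes). Their median log2 fold change was 0.53. Of the 27, 1 was called, Nr4a2, which was higher, beside 2.39% of all tested genes called higher. Nr4a2, an orphan nuclear receptor, had 0.981 and 0.499 FPKM for WT, against 3.38 and 7.08 for CD274-null (log2 fold change 2.16, SE 0.47, adjusted p = 0.251 by limma). The call of Nr4a2 was lost without WT replicate 2 (1.87), without CD274-null replicate 2 (1.67) and without moderation. The 3 most abundant genes of the list were Zfp36, which destabilizes cytokine mRNA, Rhob, a small GTPase, and Gadd45b, a stress sensor. Zfp36 was 379 and 246 for WT, against 262 and 533 for CD274-null, Rhob 136 and 211, and 153 and 565, and Gadd45b 193 and 126, and 220.3 and 439.6. None of these 3 was called.

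**Figure D5:**
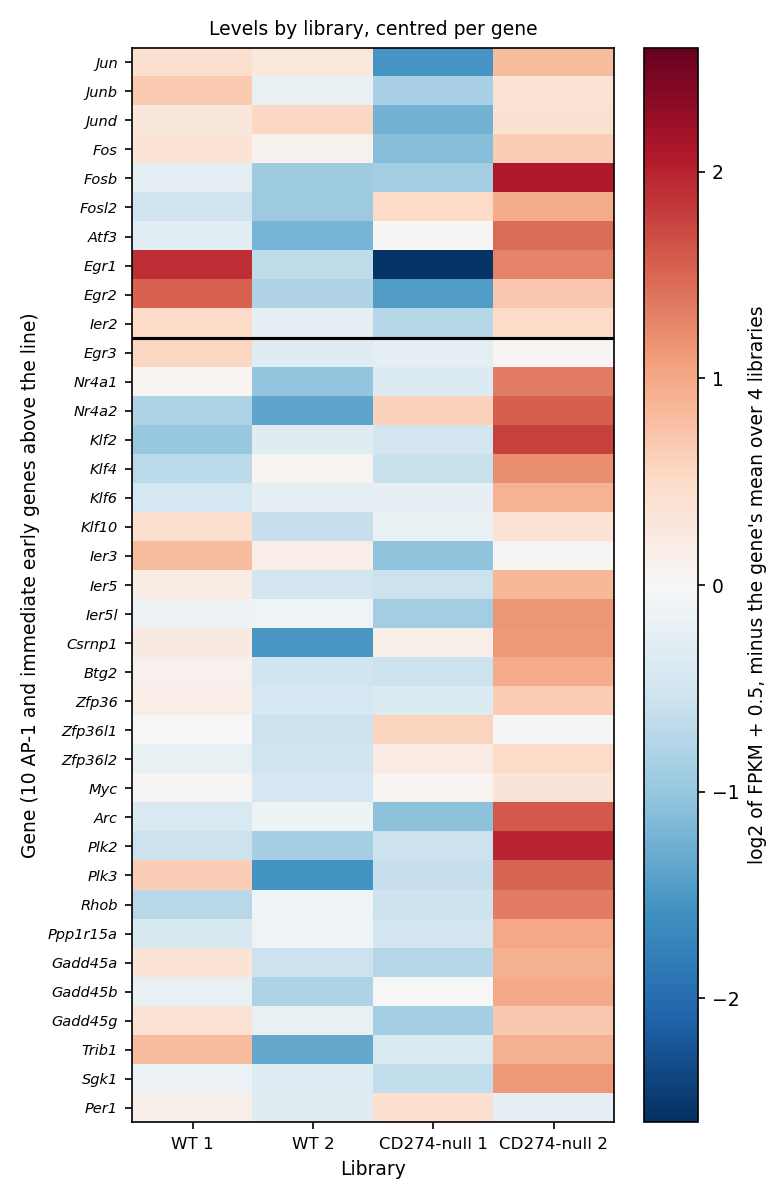
Log2(FPKM + 0.5) minus the gene's mean over the 4 libraries, for the 10 genes (above the line) and for 27 other tested immediate early genes. The column of CD274-null replicate 2 is the highest for 5 of the 10 genes and for 22 of the 27.

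Further bZIP partners did not follow this order. Of 13 other AP-1 and small Maf genes, 10 were tested, 0 were called by limma, 2 had an unadjusted p under 0.05, and 4 of 10 were higher in CD274-null replicate 2 than in replicate 1. Jdp2, a repressor that pairs with Jun proteins, was 69.5 and 53.7 for WT, against 38.5 and 37.3 for CD274-null (log2 fold change -0.68, adjusted p = 0.310 by limma). Batf, which pairs with Jun proteins and has no transactivation domain, was 25.2 and 27.3 for WT, against 41.7 and 35.7 for CD274-null (0.55, adjusted p = 0.349). Mafg, a small Maf protein, was 54.2 and 40.9 for WT, against 33.7 and 29.8 for CD274-null. For each of these 3 genes the groups did not overlap, and none was called.

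Upstream of these factors, the RNAs of kinases and SRF partners were steadier. Of 10 JNK, ERK and p38 cascade genes, 9 were tested and none differed by more than 1 on the log2 scale between libraries of a genotype. The only call of the 9 was Mapk3 (ERK1), higher in CD274-null (0.75, unadjusted p = 0.00967, adjusted p = 0.274 by limma), and it was called in 2 of 16 alternatives. Over all tested genes, 2.39% were called higher. Map2k2 (MEK2) was 45.7 and 38.9 for WT, against 52.6 and 51.0 for CD274-null, and Mapk14 (p38α) 69.8 and 101.5, and 114 and 97.1. Of 7 SRF and ternary complex genes, 1 was called lower, Elk4, an ETS partner of SRF (-1.72, adjusted p = 0.178 by limma), beside 1.24% of all tested genes. It had 12.3 and 13.0 FPKM for WT, against 4.03 and 2.98 for CD274-null, and its call was lost without CD274-null replicate 2 (-1.53) and without moderation. Srf itself was 37.7 and 42.4 for WT, against 52.7 and 44.9 for CD274-null and was not called. Neither were Creb1 (11.6 and 13.8, 15.1 and 12.4) or Mkl1, a coactivator of SRF (26.2 and 48.1, 41.9 and 47.4).

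Among 10 feedback genes, 8 were tested and 2 were called, both lower in the libraries labelled CD274-null, beside 1.24% of all tested genes. Dusp6, a phosphatase of ERK, had 41.7 and 25.4 FPKM for WT, against 9.22 and 16.4 for CD274-null (log2 fold change -1.37, unadjusted p = 0.00939, adjusted p = 0.274 by limma), and was called in 6 of 16 alternatives, with -1.01 without WT replicate 1, -0.96 without CD274-null replicate 1 and -1.77 without CD274-null replicate 2, none of them called. Nab1, a corepressor that binds EGR proteins, had 23.8 and 23.3 for WT, against 13.0 and 11.5 for CD274-null (-0.92, unadjusted p = 0.0057, adjusted p = 0.269 by limma). With each library left out in turn Nab1 stayed at or below -0.84 and was not called, and over all alternatives it was called in 10 of 16. Nab1 thus did not follow the spread of Egr1 between libraries. Dusp1, which dephosphorylates JNK and p38, was 196 and 201 for WT, against 143 and 328 for CD274-null, and Dusp2 was 103 and 88.7, and 101.4 and 350.1. Neither was called. Of 7 genes often cited as AP-1 targets, 6 were tested and 1 was called lower, beside 1.24% of all tested genes. This was Ccnd1, which encodes Cyclin D1 (log2 fold change -1.78, unadjusted p = 0.00806, adjusted p = 0.274 by limma). Ccnd1 was called in 9 of 15 alternatives. Its call was lost without WT replicate 2 (-1.32), without CD274-null replicate 1 (-2.16), without CD274-null replicate 2 (-1.41), without moderation, with no filter on low values and with GC correction and replicate block. Plaur, Cd44 and Tnf, the 3 most abundant, were not called and their groups overlapped.

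The 5 tested genes whose centred profile over the 4 libraries lay nearest to the mean profile of the 10 genes were Gm19505, E230016M11Rik, Gadd45a, an unnamed gene with NCBI number 100862004 and Gadd45g. The Euclidean distances were 0.175, 0.203, 0.308, 0.321 and 0.326 on the log2 scale. Of the 10 genes, Ier2 (0.503) and Fos (0.590) lay nearest to their mean profile and Egr1 (2.18) and Fosl2 (1.86) farthest. Gadd45a, a growth arrest gene, was 146 and 78.2 for WT, against 68.8 and 219.7 for CD274-null, and its relative Gadd45g 82.6 and 55.6, and 34.1 and 104.5. E230016M11Rik was 23.8 and 14.0, and 9.37 and 30.5. Gm19505 rests on 0 to 4 reads a library, and the likeness over 4 libraries is a description.

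Markers of other cells were read beside these values. Mature neutrophil genes (7 of 7 tested) summed to 43372.5 and 8743.4 FPKM for WT, against 18301.8 and 31342.5 for CD274-null. All 7 were higher in WT replicate 1 than in replicate 2, and 6 were higher in CD274-null replicate 2 than in replicate 1. Within each genotype the 10 genes had this order too, apart from Jund between the WT libraries. Across genotypes the order differed. WT replicate 2 was the lowest library for 7 of 7 neutrophil genes but for 3 of the 10 genes. CD274-null replicate 1 was the lowest for 0 of 7, against 7 of 10. The most abundant neutrophil genes were S100a9 (16802.2 and 3590.2, 6656.1 and 11154.9), S100a8 and Camp. Their part in the result was not tested, and the sources differ on the input, since the labels name a sort and the sequencing methods of the study name tissue. In bulk RNA, fewer cells of a type and less RNA per cell cannot be told apart. Monocyte and macrophage genes (7 of 8 tested) summed to 395 and 806 for WT, against 805 and 853 for CD274-null, led by Ly6c2, Adgre1 and Csf1r. Of the B and plasma cell genes 3 were tested and 2 were called, Igkc and Jchain, both higher in CD274-null, beside 2.39% of all tested genes. Fosl2 was higher there too, and the part of B and plasma cells in the result was not tested. Igkc was 8.64 and 7.98 for WT, against 213.8 and 189.2 for CD274-null, and Jchain 0.370 and 0.514, and 12.3 and 10.5. Cd79b, the other one tested, was 12.8 and 36.2 for WT, against 35.6 and 37.4 for CD274-null, so that it was present in all 4 libraries and its groups overlapped. Of the B cell markers that were not tested, Ms4a1, Pax5 and Ebf1 were listed at 0 in both WT libraries and did not exceed 0.416 FPKM in either CD274-null library. These 3 were picked after their values were seen, and some other untested markers of the list were above this level in CD274-null. T and NK cell genes, led by Cd3d, Cd3g and Klrb1c, summed to at most 2.70 in any library, with 0 of 7 tested, and erythroid genes, led by Hbb-bs, Hba-a1 and Hba-a2, to 55.6 in WT replicate 2 and at most 4.73 elsewhere.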

How the data were processed

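RNA was measured in 4 libraries, from LICs sorted by FACS per the labels, while the RNA-sequencing methods of the study speak of RNA isolated from tissue. According to the study's methods and the submitters' processing notes, TruSeq v2 libraries were read on a HiSeq2500, and reads were aligned by the authors to GRCm38 with TopHat2 2.0.12 (CASAVA 1.8.2 is named as well). The authors deposited 1 FPKM value per NCBI gene number and library. The program and strand setting behind FPKM are not given in the sources used here. Within a gene, FPKM values stood in ratios of whole numbers (tolerance 0.002 reads), so the reads of 17083 genes could be recovered, which is 100% of the genes with values above 0 in 2 or more libraries. Of 214 single-exon genes, 155 gave the same read total per library, which with whole gene lengths fixed a factor of 2 for Fos.

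Symbols came from RefSeq (GRCm38.p6, 25275 of 27179 genes). Genes whose mean FPKM reached 0.5 were fitted with limma 3.58.1 (R 4.3.3, moderated variance with a trend on level) on log2(FPKM + 0.5) with no covariate. P-values were adjusted after Benjamini and Hochberg, and the script was tested on simulated data. Summaries and figures were made in Python 3.11.15. Named genes are the 10 members, listed genes that were called or among the 3 most abundant of their list, and the 5 nearest profiles. Kit, Hspa1a, Hspa1b, Ms4a1, Pax5, Ebf1, Fosl1 and Prdx2 fall outside this rule and were named after their values were seen. Of 141 listed genes, 140 were in the table. A marker of the B cell list is not reported here. Members and lists were chosen with earlier results of these data known. Alternatives were pseudocounts of 1 and 0.1, all genes unfiltered, a mean FPKM reaching 5, quantile normalization, equal medians, eBayes without trend, no moderation, a replicate block, voom and leaving out each library. A GC correction was added after seeing the data. The replicate numbers were not taken to pair the samples.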

Additional observations from a re-analysis of the deposited data

How the results depend on the processing

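Of the 10 genes, 1 was called in the fit reported, and it was Fosl2 in this fit and in every one of the 12 other fits on all 4 libraries except the linear model without moderation, where 0 were called by limma's unmoderated model and 1 had an unadjusted p under 0.05. Leaving out a library in turn gave 1 to 2 called members, with Fosl2 called without either WT library, Fosb without CD274-null replicate 1, and Jun and Jund without CD274-null replicate 2. The replicate block gave 1 called member and 526 genes called over all genes. Same-numbered libraries had a correlation of deviations of -0.0151 over 13230 genes. With 2 libraries per group this is a single correlation of the 2 differences within groups, so it cannot decide whether the replicate numbers mark pairs. Over all genes, 480 were called, against 170 without moderation, 317 with GC correction and 253 with GC correction and replicate block (both over 11435 genes with a known GC content, chosen after seeing the data), and 147 to 634 with a library left out. Without any left out, no member changed the sign of its log2 fold change. Over the fits that each lacked 1 library, log2 fold changes ran from -1.87 to 0.48 for Jun, -1.09 to 0.12 for Junb, -1.65 to -0.03 for Jund, -1.32 to 0.43 for Fos, -0.30 to 2.68 for Fosb, 1.24 to 1.69 for Fosl2, 0.77 to 2.20 for Atf3, -3.16 to 0.67 for Egr1, -1.91 to 0.40 for Egr2 and -0.87 to 0.38 for Ier2. The cause was not tested. The adjusted p of Fosl2 ran from 0.172 to 0.5 over the fits on all 4 libraries. Egr2, with 12 to 242 reads, was not tested at a mean FPKM of at least 5. In its lowest library it rests on 12 reads.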
